A study of Mus musculus with 4 samples.

Results

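Plasmacytoid dendritic cells (pDCs) carry, beside their sensors and interferon genes, a group of genes better known from muscle, retina, brain, kidney or liver. Here 10 genes, chosen by name and grouped under metabolic, transport or neural functions, were described in pDCs that lack Flt3. They were Cox6a2, Pltp, Rpgrip1, Grm8, Atp1b1, Klk1, Upb1, Smim5, Cobll1 and Plac8. The grouping was taken as given and was not tested for each gene. Of the 10, 9 were measured by a probe set annotated to that gene alone, among 19938 genes in all, and Klk1 was not analysed here. All samples are labelled as pDCs and no other sorted cell type was at hand, so that whether a gene is restricted to pDCs could not be measured.

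The pDCs were sorted from spleens of Flt3 knockout (Flt3 KO) mice and of wild-type (WT) mice at steady state, with 2 biological replicates of each genotype, and each replicate was hybridised to its own whole-transcript GeneChip array. The product of Flt3 is the receptor kinase that binds FLT3 ligand, the cytokine on which dendritic cell development depends. The labels give neither the allele of the knockout nor the strain, age or sex of the mice, and they do not say whether a replicate was an animal or a pool, so p-values measure the spread between these samples. In a sorted population, fewer cells expressing a gene and less RNA per cell cannot be told apart.

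The genes have different tasks. Cox6a2 encodes the heart and skeletal muscle form of a subunit of cytochrome c oxidase, the last complex of the respiratory chain, and Upb1 encodes beta-ureidopropionase, the enzyme that completes pyrimidine breakdown. Pltp encodes the phospholipid transfer protein of plasma lipoproteins, and Atp1b1 a beta subunit of the sodium-potassium pump. Grm8 encodes a metabotropic glutamate receptor of presynaptic terminals, and Rpgrip1 a scaffold protein of the photoreceptor connecting cilium. Cobll1 is a relative of the actin regulator cordon-bleu, Smim5 encodes a small integral membrane protein, and Plac8 a small cysteine-rich protein that is also expressed by other myeloid cells.

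Promoter windows of 300 bases, 250 before to 50 after an annotated start, were found in RefSeq (GRCm38.p6) for 7 of the 9 measured genes, and they are named without a window for Cox6a2 and Smim5. The windows below are those of the 3 genes with a window that were lower in Flt3 KO pDCs (for Grm8 start 3 of the 3 annotated, whose window holds an E-box), and of Plac8, the gene whose difference was nearest to 0 (start 2 of 2). Capitals mark CAGNTG on either strand, the form of E-box that E proteins such as Tcf4, the factor that specifies pDCs, are known to bind.
Rpgrip1 (chr14:52110653-52110952, + strand): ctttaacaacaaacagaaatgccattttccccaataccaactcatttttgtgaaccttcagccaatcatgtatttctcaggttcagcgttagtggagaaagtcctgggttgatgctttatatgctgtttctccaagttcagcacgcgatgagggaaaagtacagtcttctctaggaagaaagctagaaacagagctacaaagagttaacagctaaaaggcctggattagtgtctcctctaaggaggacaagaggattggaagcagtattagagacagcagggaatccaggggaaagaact
Pltp (chr2:164857659-164857958, - strand): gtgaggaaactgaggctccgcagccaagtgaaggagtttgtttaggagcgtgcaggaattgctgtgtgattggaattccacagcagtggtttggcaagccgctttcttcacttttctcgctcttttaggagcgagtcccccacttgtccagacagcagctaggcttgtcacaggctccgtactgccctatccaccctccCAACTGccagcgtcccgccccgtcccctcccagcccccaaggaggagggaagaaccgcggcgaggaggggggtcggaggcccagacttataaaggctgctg
Grm8 (chr6:28126377-28126676, - strand): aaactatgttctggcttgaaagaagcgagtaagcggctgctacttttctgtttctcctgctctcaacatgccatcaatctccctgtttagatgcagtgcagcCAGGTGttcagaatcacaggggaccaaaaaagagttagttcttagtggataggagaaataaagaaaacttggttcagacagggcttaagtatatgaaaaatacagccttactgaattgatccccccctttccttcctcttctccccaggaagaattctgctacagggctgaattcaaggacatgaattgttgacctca
Plac8 (chr5:100563047-100563346, - strand): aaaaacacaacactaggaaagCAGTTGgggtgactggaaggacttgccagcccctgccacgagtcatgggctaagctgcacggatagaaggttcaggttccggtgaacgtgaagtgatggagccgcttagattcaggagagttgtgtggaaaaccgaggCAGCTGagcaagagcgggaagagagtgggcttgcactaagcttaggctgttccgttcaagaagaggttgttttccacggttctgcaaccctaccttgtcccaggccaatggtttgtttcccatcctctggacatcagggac

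With the start as position 0, the Pltp window held the E-box CAACTG from position −51, and the Grm8 window held CAGGTG from position −148. The Plac8 window held CAGTTG from position −229 and CAGCTG from position −91, and the Cobll1 window, not printed, held CAGTTG from position −1. The windows of Rpgrip1, of Atp1b1 and of Upb1, of starts 1 and 2 of Grm8 and of start 1 of Plac8 held none. Over the 10 windows of the 7 genes, 4 held CAGNTG, against 51.4% of all 32851 windows of this length. The other motifs searched, on both strands, were TGNGGT of RUNX factors (in 6 of the 10 windows, against 45.8% of all windows), GGAAGT of ETS factors (1, against 23.8%), TTCNNNGAA of STAT factors (0, against 8.3%) and TATAAA (2, against 13.6%). These matches are of letters only. E-boxes stood in windows of Pltp and Grm8, which were lower, and of Plac8 and Cobll1, which did not pass. The 2 windows with TATAAA were those of Pltp and Rpgrip1. No motif searched was common to all the lower genes that had a window, and Cox6a2 and Smim5 had none to search.

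The deletion was read first. The log2 intensity of Flt3 was 8.46 and 8.61 in Flt3 KO pDCs, against 10.71 and 10.77 in WT pDCs, and fell by 2.21 (SE 0.066, limma adjusted p = 7.4e-05). The markers that define pDCs were bright in both genotypes, where the median of all genes was 5.89. Siglech, Bst2 and Tcf4 averaged 12.52, 12.85 and 12.21 in Flt3 KO pDCs and 12.65, 12.92 and 12.25 in WT pDCs. The other defining markers, Ccr9, Tlr7 and Tlr9, averaged 11.29, 9.54 and 10.89 in Flt3 KO pDCs and 11.72, 10.03 and 11.09 in WT pDCs. Of these, Ccr9 and Tlr7 passed as lower, as given below. The median intensity of an array lay between 55.1 and 57.2 and the upper quartile between 206.2 and 214.6.

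Of the 9 measured genes, 5 were lower in Flt3 KO pDCs, 0 were higher, and 4 did not pass the threshold of a limma adjusted p under 0.05 (Benjamini-Hochberg over all 19938 genes). The 5 were Rpgrip1, Cox6a2, Grm8, Pltp and Smim5, whose intensity in Flt3 KO pDCs was 58.4% to 77.3% of that in WT pDCs. Over all genes 2.39% passed, and 1.31% passed as lower in Flt3 KO. At an unadjusted p under 0.05 in limma, 8 of the 9 were lower and 0 higher, where 17.1% of all genes passed and 10.1% passed as lower. The median of the log2 differences (Flt3 KO minus WT) was −0.37, against −0.0010 over all genes. The lists of genes were chosen with earlier results of these data known, so the counts describe these 9 genes.

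The replicates of the 2 genotypes did not overlap for 8 of the 9 genes, all of them lower in Flt3 KO, while 25.3% of all genes had arrays that did not overlap in that direction. All 9 lay above the median level of all genes, and genes in their range of mean intensity (7.78 to 12.11) leaned the same way. Among the 4665 genes in that range the median difference was −0.048, 3.60% passed as lower, and 41.9% did not overlap in that direction. With any 1 array left out, the fit had 1 residual degree of freedom and 0 of the 9 genes passed in limma (lowest adjusted p 0.067), with 7 at an unadjusted p under 0.05 in each of the 4 fits, against 2068 to 2689 of all 19938 genes. The differences of the 5 genes themselves were 0.771 to 1.23 times their full value in these fits.

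**Figure D1:**
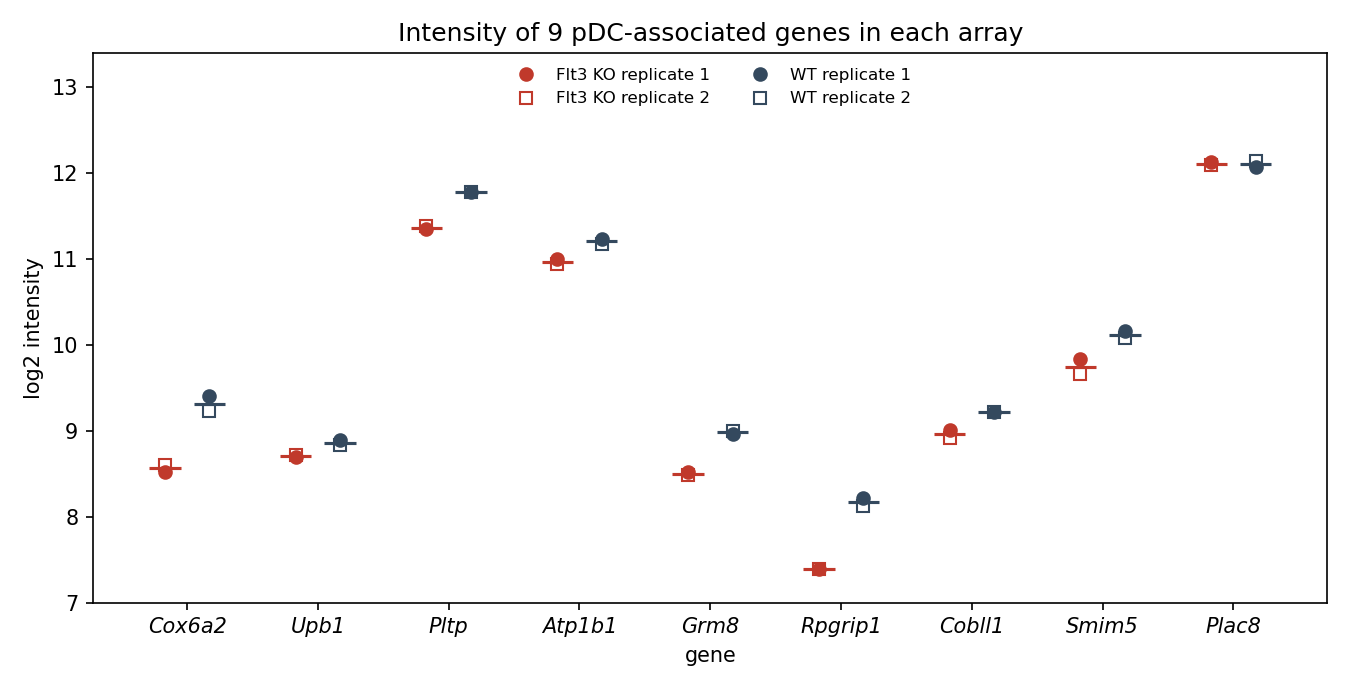
Log2 intensity (vertical axis) of each of the 9 genes (horizontal axis) in every array, Flt3 KO in red on the left and WT in dark blue on the right, with replicate 1 filled, replicate 2 open and a line at the mean of the 2 arrays. The Flt3 KO arrays lie below the WT arrays for 8 genes, and those of Plac8 overlap.

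Among the genes of energy and nucleotide metabolism, Cox6a2 (Entrez gene 12862) had one of the widest gaps of the set. Its log2 intensity was 8.52 and 8.60 in Flt3 KO pDCs, against 9.40 and 9.23 in WT pDCs. Both Flt3 KO arrays lay at least 0.63 below either WT array, against a gap of 0.082 between the Flt3 KO replicates and of 0.17 between the WT replicates. Cox6a2 fell by 0.76 (SE 0.075, limma adjusted p = 0.0069), to 59.2% of the WT intensity, and was the 33rd lowest difference of all genes.

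The other subunits of cytochrome c oxidase did not share a change of this size. The ubiquitous counterpart of Cox6a2, Cox6a1, had 11.08 and 11.33 in Flt3 KO pDCs, against 11.30 and 11.29 in WT pDCs, and its arrays overlapped. Its difference was −0.095 with a 95% interval of −0.28 to 0.089 (limma adjusted p = 0.60), which does not reach the interval of Cox6a2, −0.93 to −0.58. The difference between the 2 genes was not tested, and without Flt3 KO replicate 1 that of Cox6a1 was 0.031. Of 17 measured subunits 0 passed in limma (6 at an unadjusted p under 0.05), and their median difference was −0.095. Of the 11 subunits above the median level of all genes, 10 had a negative sign, between −0.18 and 0.013 over the 11. The lowest p was that of Cox6b2, the testis form of another subunit, with 0.46 (limma adjusted p = 0.075), at a mean level below the median of all genes.

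Upb1 (Entrez gene 103149) had 8.70 and 8.72 in Flt3 KO pDCs, against 8.89 and 8.84 in WT pDCs. The arrays of the genotypes did not overlap, with 0.12 between the nearest. Its difference of −0.16 (SE 0.059, limma adjusted p = 0.24) did not pass, and its 95% interval ran from −0.29 to −0.018. Of the pathway around it, Dpyd, the enzyme that opens pyrimidine breakdown, averaged 3.48 in Flt3 KO and 3.59 in WT pDCs, below the median of all genes, with a difference of −0.11. Of 14 measured genes of pyrimidine breakdown and beta-alanine handling, 1 rose and 0 fell. The gene that rose was Uck2, a uridine-cytidine kinase of pyrimidine salvage, with 11.10 and 10.93 in Flt3 KO pDCs against 10.24 and 10.45 in WT pDCs, a difference of 0.67 (SE 0.085, limma adjusted p = 0.013), which did not pass without the intensity trend (adjusted p = 0.069).

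Of the transport genes, Pltp (Entrez gene 18830) was lower in both Flt3 KO arrays. It had 11.35 and 11.39 in Flt3 KO pDCs, against 11.78 and 11.79 in WT pDCs. The replicates of each genotype differed by at most 0.040, against a gap of 0.39 between the nearest arrays of different genotype. Pltp fell by 0.41 (SE 0.041, limma adjusted p = 0.0069), to 75.0% of WT, and this call was lost without the intensity trend (adjusted p = 0.086). Of 11 measured genes of phospholipid transfer and high-density lipoprotein handling, 1 fell and 0 rose, with a median of 0.037. The gene that fell was Abcg1, a sterol exporter that loads lipoproteins, by 0.31 (SE 0.060, limma adjusted p = 0.049), at the edge of the threshold.

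Atp1b1 (Entrez gene 11931) had 11.00 and 10.95 in Flt3 KO pDCs, against 11.24 and 11.18 in WT pDCs. The genotypes did not overlap, with a gap of 0.18 between the nearest arrays. Its difference was −0.24 (SE 0.047, 95% interval −0.35 to −0.13) with a limma adjusted p of 0.052, just outside the threshold. It passed when each array was centred on its median (adjusted p = 0.023), when dim genes were left out (0.026) and with robust variance (0.040). The other widely expressed beta subunit, Atp1b3, had a difference of −0.12 (SE 0.048, limma adjusted p = 0.28). Of 13 measured pump genes 1 rose and 0 fell. This was Fxyd5, a small regulatory subunit of the pump, with 10.49 and 10.63 in Flt3 KO pDCs against 10.07 and 10.07 in WT pDCs, a rise of 0.49 (SE 0.059, limma adjusted p = 0.011), which did not pass without the intensity trend (adjusted p = 0.075).

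The genes known from nerve and sense cells were both lower. Rpgrip1 (Entrez gene 77945) had 7.39 and 7.39 in Flt3 KO pDCs, against 8.22 and 8.12 in WT pDCs. The Flt3 KO arrays were 0.0016 apart and lay 0.73 below the lower WT array, the widest gap of the 9 genes. Rpgrip1 fell by 0.78 (SE 0.070, limma adjusted p = 0.0048), to 58.4% of WT, and was the 27th lowest difference of all genes. With Cox6a2 it was one of the 2 genes of the set that passed in each of the 9 other fits to all 4 arrays.

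The partners of Rpgrip1 at the cilium showed no change past the threshold. Rpgr, which encodes the GTPase regulator that anchors to it, had a difference of −0.26 (SE 0.086, limma adjusted p = 0.18), and its relative Rpgrip1l one of −0.13 (limma adjusted p = 0.64). Of 10 measured partner genes, 0 passed in limma in either direction and 1 had an unadjusted p under 0.05. Their median difference was −0.063.

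Grm8 (Entrez gene 14823), with a promoter window printed above, had 8.516 and 8.480 in Flt3 KO pDCs, against 8.968 and 9.001 in WT pDCs. The replicates of either genotype were within 0.036 of each other, and 0.45 separated the nearest arrays of different genotype. Grm8 fell by 0.49 (SE 0.059, limma adjusted p = 0.011), to 71.4% of WT, a call lost without the intensity trend (adjusted p = 0.062). The 6 other metabotropic glutamate receptor genes measured averaged between 4.16 and 6.04 in either genotype and differed by −0.033 to 0.12. Of 18 measured glutamate receptor and transporter genes, 0 passed in limma in either direction, with 1 at an unadjusted p under 0.05. The lowest p was that of Gria3, an AMPA receptor subunit gene, with a difference of 0.24 (limma adjusted p = 0.15).

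**Figure D2:**
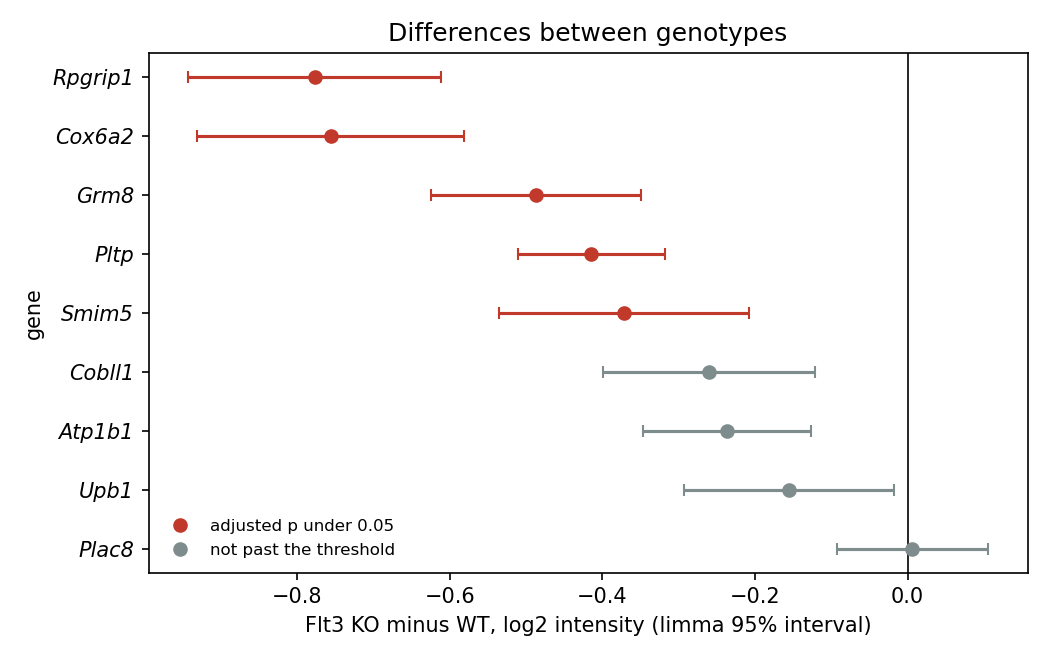
Flt3 KO minus WT difference in log2 intensity (horizontal axis) of the 9 genes (vertical axis), with limma's 95% interval and genes past the adjusted p of 0.05 in red. Rpgrip1 and Cox6a2 lie farthest from 0, at −0.78 and −0.76, and the interval of Plac8 spans 0.

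Of the remaining genes, Smim5 (Entrez gene 66528) had 9.83 and 9.66 in Flt3 KO pDCs, against 10.16 and 10.08 in WT pDCs. The genotypes did not overlap, but the Flt3 KO replicates were 0.17 apart, the widest replicate gap of the set. Smim5 fell by 0.37 (SE 0.070, limma adjusted p = 0.047), to 77.3% of WT. This call was lost under quantile normalization (adjusted p = 0.052), without the intensity trend (0.15) and with all 30177 probe sets tested together (0.095). Of 12 other small integral membrane protein genes measured, 0 passed in limma in either direction (5 at an unadjusted p under 0.05), and 11 had a negative sign, with a median of −0.16. The lowest p among them was that of Smim19, with −0.25 (limma adjusted p = 0.14). The 12 genes were listed by their shared symbol root, and whether they resemble Smim5 in sequence or function was not examined.

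Cobll1 (Entrez gene 319876) had 9.01 and 8.92 in Flt3 KO pDCs, against 9.22 and 9.22 in WT pDCs. The WT arrays were 0.0034 apart and both lay above the Flt3 KO arrays, by 0.22 at the nearest. Its difference of −0.26 (SE 0.059, 95% interval −0.40 to −0.12) had a limma adjusted p of 0.083. It passed when each array was centred on its median (adjusted p = 0.042) and when dim genes were left out (0.042). Cobl itself, the gene of the actin nucleator cordon-bleu, averaged 5.68 in Flt3 KO and 5.48 in WT pDCs, below the median of all genes, with a difference of 0.20 (limma adjusted p = 0.37). Pacsin1, a membrane-shaping protein gene known from neurons and from pDCs, had −0.24 (SE 0.048, limma adjusted p = 0.056). This was the lowest p of the 5 measured genes listed beside Cobll1 and Plac8, of which 0 passed in limma. Pacsin1 was counted both in that list and among the other pDC genes below. Pacsin1 passed with arrays centred on their median (adjusted p = 0.029), with dim genes left out (0.028) and with robust variance (0.044).

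Plac8 (Entrez gene 231507) had 12.13 and 12.09 in Flt3 KO pDCs, against 12.07 and 12.14 in WT pDCs, and was the one gene of the set whose arrays overlapped between genotypes. Its difference was 0.0061 (SE 0.042, limma adjusted p = 0.96), with a 95% interval of −0.093 to 0.10. That interval leaves out a fall of the size estimated for any of the 5 genes that passed. The sign of the difference turned when each array was centred on its median (−0.032), and without WT replicate 1 (−0.027) or Flt3 KO replicate 1 (−0.013).

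Klk1, the gene of tissue kallikrein, which releases kinins, was not analysed here, but 25 genes of kallikreins and the kinin system were measured, of which 3 fell and 0 rose. Klk1b27 had 6.67 and 6.71 in Flt3 KO pDCs, against 7.87 and 7.44 in WT pDCs, and fell by 0.96 (SE 0.13, limma adjusted p = 0.018), a call lost without the intensity trend (adjusted p = 0.062). Klk1b11 fell by 0.77 (limma adjusted p = 0.015) and Klk1b5 by 0.55 (limma adjusted p = 0.036), both at levels below the median of all genes in both genotypes, where signal over background is low. These genes are closely similar copies of each other and of Klk1, so that probes may share signal. Probe sequences were not compared, so none of the values can be assigned to a single gene with certainty. The other 22 did not pass.

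**Figure D3:**
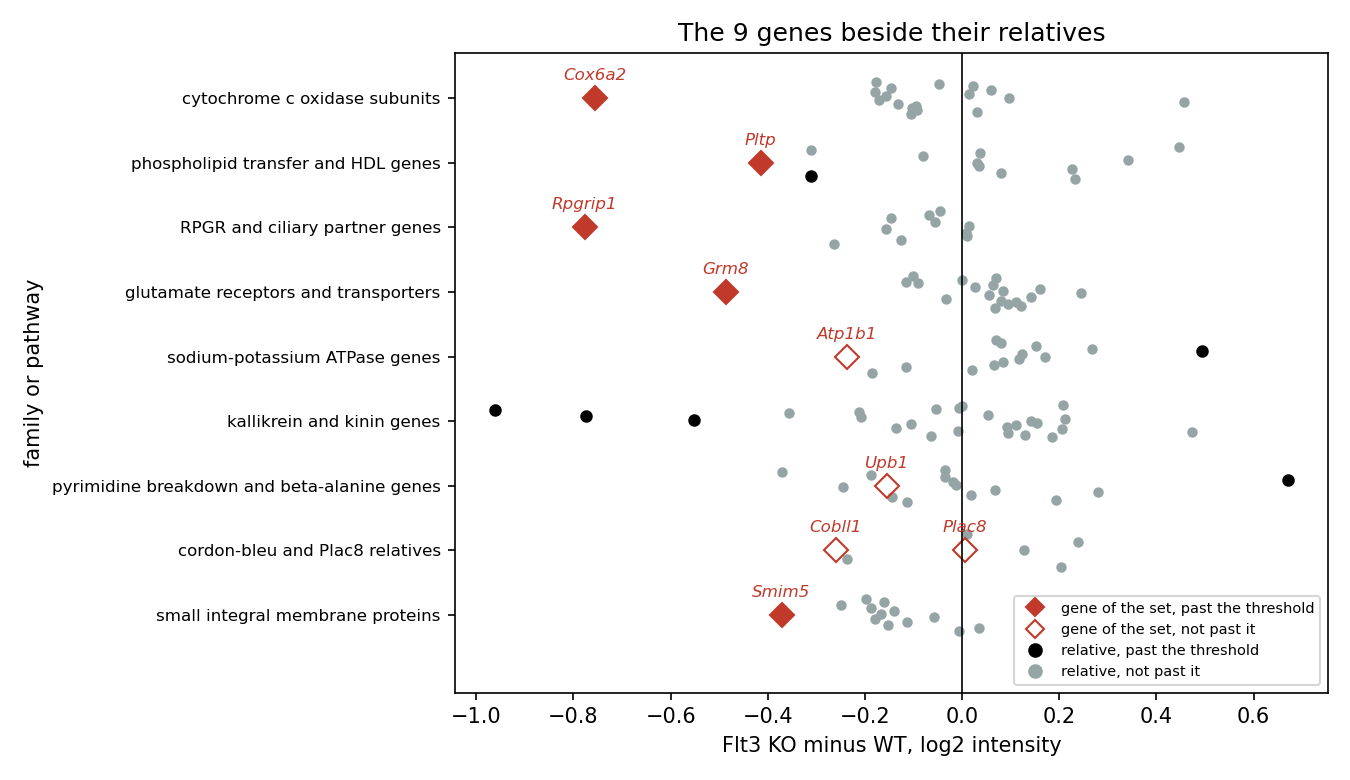
Flt3 KO minus WT difference in log2 intensity (horizontal axis) of the 9 genes (red diamonds, filled where past the threshold) and of the measured genes listed as relatives. These are set in 9 rows by family, pathway or shared name (vertical axis, grey points, black where past the threshold). In most families the relatives lie near 0, and each of the 9 genes except Upb1 and Plac8 lies to the left of every relative in its row.

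Over all these lists, drawn up by family, pathway or shared name, 125 genes, called relatives here, were measured. Of them 2 rose, 4 fell and 119 did not pass, and their median difference was 0.0078. Of the 125, 71 lay at or below the median level of all genes. The genes next to the 9 on their chromosomes were also read, in the order of RefSeq. Of 18 measured protein-coding neighbours, 0 passed in limma in either direction (5 at an unadjusted p under 0.05), and their median difference was −0.060. The lowest difference among the neighbours was that of Recql5, a DNA helicase gene beside Smim5, at −0.31 (SE 0.070, limma adjusted p = 0.081), and the highest that of Dpt, a matrix protein gene beside Atp1b1, at 0.81 (SE 0.16, limma adjusted p = 0.051). Both were picked after their values were seen. The mean level of Dpt was below the median of all genes, and with 16 added before log2 its difference was 0.45. Dpt passed in 5 of 8 other fits to all 4 arrays, with the replicate block among them (adjusted p = 0.012), and Recql5 in 2 of 9, with arrays centred on their median (0.049) and with dim genes left out (0.043). The other neighbour of Smim5, Smim6, had a difference of −0.27 (SE 0.094, limma adjusted p = 0.22), and the arrays of both Smim5 neighbours did not overlap between genotypes, lower in Flt3 KO. The neighbours of Cox6a2, Pltp, Rpgrip1 and Grm8 had differences of −0.20 to 0.16.

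Other genes known from pDCs, with immune or regulatory functions, were set beside the 9 genes. Of the 27 that were measured 9 fell and 1 rose, 17 did not pass, and the median was −0.19. Over all genes 2.39% passed, and 1.31% passed as lower. The toll-like receptor gene Tlr7 fell by 0.49 (SE 0.051, limma adjusted p = 0.0076), and the chemokine receptor gene Ccr9 by 0.43 (SE 0.048, limma adjusted p = 0.0085). The transcription factor gene Spib fell by 0.47 (SE 0.057) and the ephrin receptor gene Epha2 by 0.50 (SE 0.061), each with a limma adjusted p of 0.011. These falls were close in size to those of Grm8 and Pltp, and without the intensity trend none of the 4 passed (adjusted p 0.060 to 0.088). Tlr9, a defining marker like Tlr7 and Ccr9, had a difference of −0.20 (SE 0.048, limma adjusted p = 0.095). Its arrays did not overlap between genotypes. Siglech, Bst2 and Tcf4 had differences of −0.13, −0.074 and −0.043 and did not pass, and the sign of Tcf4 turned without Flt3 KO replicate 1 and also under quantile normalization. A difference in response between these genes and the 9 was not tested.

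The mean profile of the 9 genes over the 4 arrays, each gene centred on its own mean, was −0.18 and −0.20 in Flt3 KO pDCs, against 0.21 and 0.17 in WT pDCs. The named genes outside the set with the nearest profile by Euclidean distance were Scamp1, a gene of vesicle membranes (distance 0.020), the teneurin gene Tenm3 (0.023) and the paraoxonase gene Pon3 (0.023). Of them Pon3 passed, with a difference of −0.39 (limma adjusted p = 0.043), a call lost without the intensity trend (adjusted p = 0.095), with the replicate block (0.071) and with all probe sets tested together (0.083). With only 4 arrays, 2288 named genes lay within a distance of 0.25, so nearness of this kind is common. Within the set, Pltp was nearest to the mean profile (0.066), and Plac8 (0.397), Rpgrip1 (0.396) and Cox6a2 (0.391) were about equally far from it.

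Signal of genes used as markers of other cell types moved between the genotypes in the same arrays. All samples are labelled as pDCs, and which cells this signal came from was not tested. Of 18 measured markers of monocytes and macrophages, 7 rose and 0 fell, with a median of 0.46, where 215 of all 19938 genes passed as higher and 261 as lower. The summed intensity of these markers was 6716 and 8428 in Flt3 KO pDCs, against 5556 and 5232 in WT pDCs. Their median shift from the WT mean was 0.27 in Flt3 KO replicate 1 and 0.55 in Flt3 KO replicate 2. The summed intensity of the 9 genes was 11871 and 11645 in Flt3 KO pDCs, against 13917 and 13884 in WT pDCs. For them the median shift was −0.29 in Flt3 KO replicate 1 and −0.39 in Flt3 KO replicate 2, and 8 and 9 of the 9 genes lay below the WT mean there. The marker sum of each Flt3 KO array was above that of both WT arrays, so that leaving out either one does not remove this signal. The part of the markers in the differences of the 9 genes was not tested.

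Among the other marker lists, B cells had 0 of 9 past the threshold in limma (summed 939 and 899 in Flt3 KO, against 923 and 948 in WT, with 2 at an unadjusted p under 0.05 higher and 1 lower). Plasma cells had 2 higher and 2 lower of 8, and type 2 conventional dendritic cells 3 higher and 0 lower of 10. The markers of both conventional types, Flt3 itself among them, had 1 higher and 1 lower of 8. All 8 of these had an unadjusted p under 0.05 in limma, 5 with a positive and 3 with a negative sign, and their median was 0.23. In limma 0 of 10 markers of T and NK cells passed, 0 of 8 of type 1 conventional dendritic cells, 0 of 10 of neutrophils and 0 of 6 of erythroid cells and platelets, with 5, 1, 3 and 1 at an unadjusted p under 0.05. In the same order, 8, 4, 4 and 6 markers had a positive sign, and the medians were 0.22, −0.0039, −0.052 and 0.16. Ms4a1, a defining marker of B cells, averaged 5.44 in Flt3 KO and 5.53 in WT, and Xcr1, that of type 1 conventional dendritic cells, averaged 4.54 in Flt3 KO and 4.67 in WT, all below the median of all genes. Most of their lists were brighter: 7 of the 9 B cell markers and 5 of the 8 markers of type 1 conventional dendritic cells lay above that median. No detection call accompanied the values, so that absence of a transcript could not be read.

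**Figure D4:**
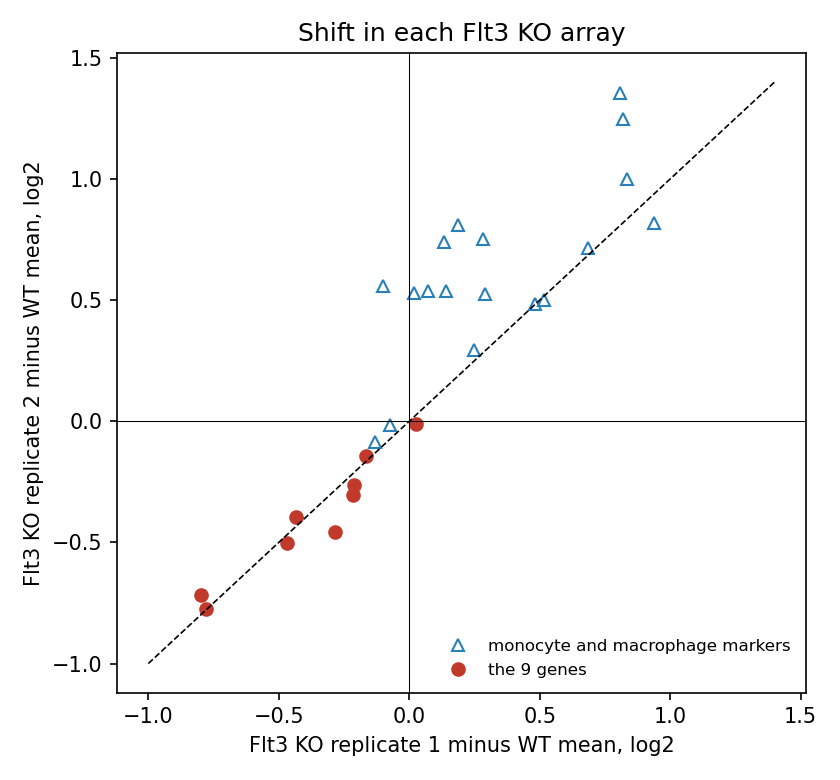
Shift from the WT mean in log2 intensity in Flt3 KO replicate 1 (horizontal axis) and replicate 2 (vertical axis) for the 9 genes (red circles) and 18 markers of monocytes and macrophages (blue triangles), with equality as a dashed line. The 9 genes lie close to the line and below 0, except Plac8 in replicate 1, while most markers lie above the line and above 0.

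**Figure D5:**
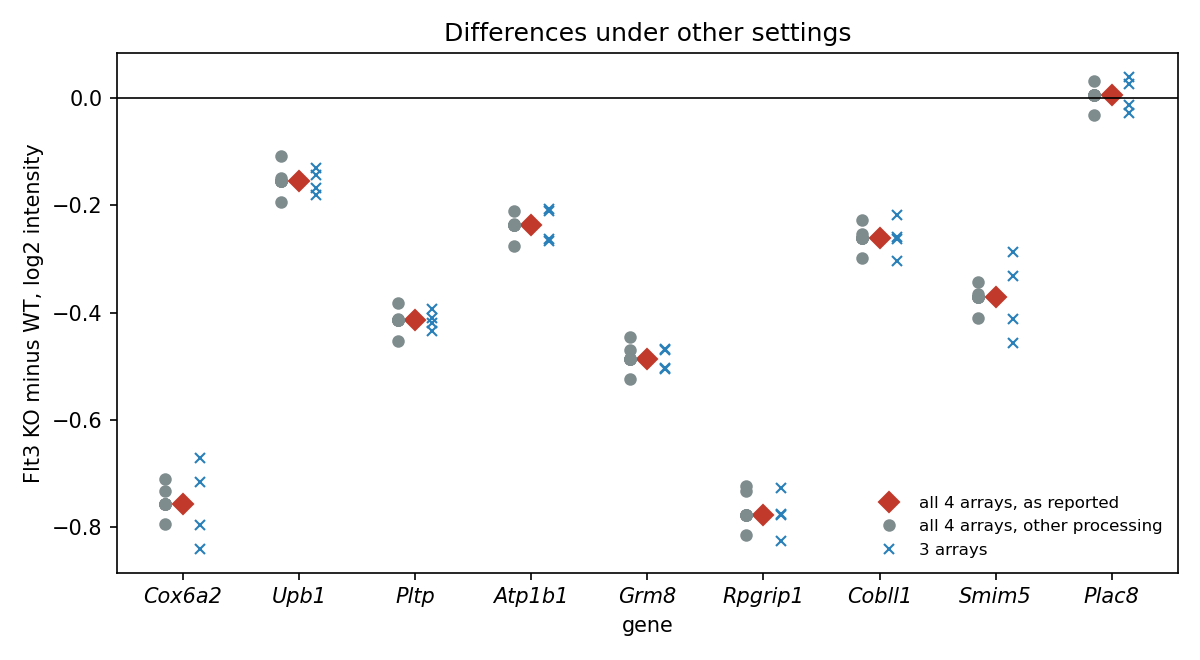
Flt3 KO minus WT difference in log2 intensity (vertical axis) of the 9 genes (horizontal axis) as reported (red diamonds), under 9 other ways of processing all 4 arrays (grey circles) and in 4 fits with an array left out (blue crosses). The settings move each gene far less than the distance of Rpgrip1 or Cox6a2 from 0, and those of Plac8 fall on both sides of 0.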

How the data were processed

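RNA of pDCs sorted from mouse spleens was amplified, biotin-labelled and hybridised to GeneChip arrays, per the labels. The deposited values are probe-set intensity on a linear scale, already close to one scale across arrays; the authors' background correction, summarisation and scaling were not given in the sources used here. Precision is limited by 2 arrays per genotype: the smallest p of an exact two-sided permutation test would be 0.3333, so no such p is given.

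Of 30177 probe sets, 21789 carried 1 gene symbol in the platform annotation, 1621 several and 6767 none. The single-symbol probe sets gave 19938 genes, each read by its probe set with the highest mean; each of the 9 genes had 1 probe set. Log2 intensities, with no constant added and no filter, were fitted with limma 3.58.1 in R 4.3.3 (lmFit, eBayes with trend, no covariate) across all genes, with Benjamini-Hochberg adjustment and a threshold of 0.05. Some genes had replicate variances of 0, which limma offset. The code was tested on simulated data.

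The genes and lists were chosen with earlier results of these data known. Named are the 9 genes, Flt3, up to 4 relatives per family past the threshold or else that with the lowest p, 8 fixed relatives (1 is not reported here), 3 fixed pDC genes with up to 4 past the threshold, and 3 genes of nearest profile. Defining markers of cell types were named too. Neighbours came from RefSeq gene order. Alternatives were quantile normalization, median centring, 16 added before log2, dim genes left out, probe sets averaged, no trend, robust variance, the replicate number as a block, each array left out, and all probe sets together, the last added after the data had been seen. Same-numbered replicates did not deviate together (r = −0.017 across genes), so the numbers were not taken as pairs.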

Additional observations from a re-analysis of the deposited data

How the results depend on the processing

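The 5 genes that passed kept their negative sign under all 13 alternatives, and so did Atp1b1, Upb1 and Cobll1. For the 9 genes, only quantile normalization, median centring, the added 16 and leaving out an array could change a difference. The other alternatives changed only the variance estimate or the genes tested, so the sign could not turn there. Plac8 turned to −0.032 with arrays centred on their median, to −0.027 without WT replicate 1 and to −0.013 without Flt3 KO replicate 1 (range with 1 array left out −0.027 to 0.040). Cox6a1 turned to 0.031 (range −0.22 to 0.031) and Tcf4 to 0.011 (range −0.097 to 0.011) without Flt3 KO replicate 1, and Tcf4 to 0.00045 under quantile normalization. Without the intensity trend, 2 of the 9 genes, 108 of all genes, 1 relative, 0 other pDC genes (15 at an unadjusted p under 0.05) and 8 markers passed in limma, against 5, 476, 6, 10 and 16 as reported. With dim genes left out 724 genes passed, fewer being tested, and with all probe sets together 219 genes and 5 other pDC genes. With 1 array left out, 0 of the 9 genes (7 unadjusted), 0 to 54 of all genes (2068 to 2689 unadjusted), 0 relatives (19 to 28), 0 other pDC genes (15 to 17) and 0 to 7 markers passed in limma, and the median difference of the 9 genes ran from −0.41 to −0.29, with −0.29 without Flt3 KO replicate 2. Fewer samples and 1 residual degree of freedom enter these fits; the cause of the other changes was not tested. With the replicate block the same count of 5 genes passed, and 375 of all genes, 181 of them lower; it changed no call of the 9 genes. Under centring the split of all calls was 217 higher and 452 lower, and under quantile normalization 293 higher and 259 lower, against 215 and 261. Centring moved the median of all genes to −0.039. Abcg1 was lost under quantile normalization, without trend, with the block and with all probe sets together, and Klk1b5 under the last 3.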
